A study of Mus musculus with 30 samples.

Results

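The 8 genes described here, Rag1, Rag2, Dntt, Ptcra, Arpp21, Aqp11, Mns1 and Cd1d1, are genes of the CD4 and CD8 double-positive stage of thymocyte development. They were taken by gene symbol, and all 8 symbols were found in each of the 3 count tables, which list 21983 symbols (thymus DP and CD4 SP) or 46095 symbols (thymus CD8 SP, and both spleen populations). The study sequenced poly(A) RNA from T cell subsets that were stained with antibodies and sorted from thymus and spleen of mice with and without Prmt5, whose protein methylates arginines, symmetrically, on histones and splicing factors. The 30 libraries cover 5 populations, with 3 mice per genotype in each: thymus double-positive cells (DP), thymus CD4 single-positive cells (CD4 SP), thymus CD8 single-positive cells (CD8 SP), spleen CD4 cells and spleen CD8 cells. All mice were C57BL/6. Control mice are labelled wild type (WT), and knockout mice (CKO) are labelled CD4-Cre+ PRMT5fl/fl. This transgene drives Cre from a Cd4 promoter that is active from about the DP stage. No group is labelled as carrying Cre without the floxed gene, so effects of Cre and of the deletion cannot be told apart. Ages and sexes are not in the labels. By the numbers in the labels, WT animals 15, 18 and 24 and CKO animals 14, 17 and 23 gave both thymus DP and CD4 SP cells, and WT animals 67, 70 and 71 and CKO animals 65, 68 and 72 gave both spleen populations. The thymus CD8 SP libraries are numbered 1 to 3 in each genotype.

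Developing T cells rearrange their antigen receptor genes with the RAG recombinase, a complex of the proteins of Rag1 and Rag2. Dntt encodes terminal deoxynucleotidyl transferase, which adds untemplated nucleotides at the joints. Ptcra encodes the pre-T-cell receptor alpha chain, which pairs with a new beta chain before the alpha chain locus is rearranged. RAG is used again at the DP stage to rearrange that alpha locus, and its expression ends once a receptor has been positively selected. Cd1d1 encodes the lipid-presenting molecule that DP thymocytes show to precursors of NKT cells. Arpp21 encodes an RNA-binding phosphoprotein, and its host transcript carries a microRNA. Aqp11 encodes an aquaporin and Mns1 a structural protein of cilia and sperm.

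Rag1 and Rag2 lie tail to tail on chromosome 2 in GRCm38, Rag2 on the plus strand (101624718 to 101632529) and Rag1 on the minus strand (101638282 to 101649501), with 5752 bases between them in the GENCODE M21 annotation. The other members are spread over the genome: Dntt on chromosome 19 (41029275 to 41059525), Ptcra on chromosome 17 (46755663 to 46763712), Arpp21 (112065091 to 112235938) and Mns1 (72438011 to 72462025) on chromosome 9, Aqp11 on chromosome 7 (97724006 to 97738289) and Cd1d1 on chromosome 3 (86995834 to 86999441). From DP to CD4 SP cells Rag1, Rag2 and Ptcra went down together in WT mice. In WT CD8 SP cells Ptcra stood above its DP level and both Rag genes below theirs. Sequences just before the start site are therefore given for the recombinase pair and for Ptcra. Each is the 250 bases before the RefSeq start in GRCm38.p6, read 5′ to 3′ on the gene's strand: Rag1 at chr2:101649533-101649782 (minus), Rag2 at chr2:101624462-101624711 (plus) and Ptcra at chr17:46763713-46763962 (minus). Capitals mark matches on either strand to a pair of E-box motifs, CAGCTG as well as CACCTG (which appears as CAGGTG when read on the other strand), and to the nuclear receptor core AGGTCA. Both E-box motifs are forms of CANNTG, the letters that E proteins bind.
Rag1: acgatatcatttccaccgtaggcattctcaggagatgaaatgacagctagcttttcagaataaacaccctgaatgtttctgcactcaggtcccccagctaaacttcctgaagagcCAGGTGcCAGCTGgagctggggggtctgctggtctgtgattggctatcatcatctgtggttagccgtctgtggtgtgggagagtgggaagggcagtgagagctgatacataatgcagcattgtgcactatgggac
Rag2: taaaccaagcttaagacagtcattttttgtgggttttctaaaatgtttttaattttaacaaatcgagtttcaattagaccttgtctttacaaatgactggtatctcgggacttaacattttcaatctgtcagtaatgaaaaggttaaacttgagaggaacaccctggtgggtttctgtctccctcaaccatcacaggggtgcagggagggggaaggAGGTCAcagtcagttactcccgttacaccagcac
Ptcra: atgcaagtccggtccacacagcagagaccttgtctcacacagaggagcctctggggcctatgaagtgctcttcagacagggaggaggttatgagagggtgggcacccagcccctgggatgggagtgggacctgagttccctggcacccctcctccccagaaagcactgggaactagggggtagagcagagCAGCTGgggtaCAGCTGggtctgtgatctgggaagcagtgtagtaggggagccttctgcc

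In the Rag1 sequence the matches begin 135 (CAGGTG) and 128 (CAGCTG) bases before the start, and in the Ptcra sequence CAGCTG begins 60 and 49 bases before it. The Rag2 sequence has AGGTCA at 34 bases and neither E-box form. Of 32536 RefSeq promoter windows of the same length, 13.1% hold CAGCTG, 17.3% hold CACCTG, 14.04% hold AGGTCA and 66.2% hold any CANNTG on either strand, so each match is common and is a description of the letters, not of a bound site.

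Total counts per library ran from 11865646 to 22881226 in the table of thymus DP and CD4 SP cells, from 28721963 to 35353441 in thymus CD8 SP cells and from 24729146 to 27192847 in the spleen. The targeted gene, Prmt5, was lower in every CKO library than in every WT library of its population: 30.2 to 31.0 CPM (read counts scaled to a common total) against 59.7 to 69.5 in thymus DP, 24.9 to 41.8 against 56.9 to 68.2 in thymus CD4 SP, 115 to 117 against 135 to 149 in thymus CD8 SP, 18.8 to 24.02 against 43.2 to 44.2 in spleen CD4 and 29.3 to 42.0 against 61.7 to 67.99 in spleen CD8. The labelled CD4 SP libraries of the thymus did not lack the CD8 transcripts. Cd8a, a coreceptor chain that marks DP and CD8 cells, stood at 34.8% to 56.6% of the DP level of the same animal in WT 15, 18 and 24 and CKO 23, at 82.7% in CKO 14 and at 1.68% in CKO 17. The mature marker Ccr7 was high in all 6 (300 to 990 CPM, against 6.20 to 13.04 CPM in DP). Markers of other cell types were counted in these libraries. The summed level of 10 B cell markers was 16.3 to 20.1 CPM in DP and 6.63 to 26.7 CPM in CD4 SP, with Pax5, a factor that defines B cells, at 0.649 CPM or less and Cd79b, a B cell receptor chain, at up to 21.3 CPM. The sum of 8 thymic epithelial markers was 53.0 to 67.7 CPM in DP and 45.3 to 77.1 CPM in CD4 SP, with Foxn1, which defines that epithelium, at 0.108 CPM or less and the adhesion molecule gene Epcam at 4.87 to 9.02 CPM. The sum of 12 macrophage and dendritic markers was 76.5 to 112 CPM in DP, 119 to 197 CPM in WT CD4 SP and 189 to 260.01 CPM in CKO CD4 SP, highest in CKO 14. The part of these cell types in the results was not tested. The CD4 SP library of CKO 14 stood apart in another way. Its level relative to the other CD4 SP libraries rose with the GC content of the transcript, from a median log2 of -1.32 in the lowest quartile of genes to 0.50 in the highest. That difference of 1.83 compares with -0.555 to 0.0914 in the 28 libraries other than CD4 SP of CKO 14 and 17. The level in CD4 SP of CKO 14 also fell with transcript length, by a difference of -1.04 between the longest and shortest quartiles. The same 28 libraries had -0.193 to 0.39. CD4 SP of CKO 17 lay within both ranges (-0.360 for GC and 0.260 for length). The main member estimates that use CKO 14 or CKO 17 CD4 SP cells are therefore also given over fits that drop a library. Medians, overlap counts, other genes and the search for genes like Rag1 use both libraries.

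Between populations, 7 of the 8 genes had their highest WT mean in thymus DP and all 8 were lower in the spleen than in DP. Levels were scaled within each table, so differences between tables are given as values and not tested. In WT thymus DP cells Rag1 stood at 3221, 3108 and 4002 CPM (animals 15, 18 and 24) and Rag2 at 45.8, 52.3 and 66.6 CPM. Both were highest in animal 24. Per kilobase of annotated exon, Dntt (684 ± 60.3 CPM per kb, SD, n = 3) and Rag1 (521 ± 73.7) stood far above the other members in these cells, followed by Arpp21 (48.0 ± 1.36), Mns1 (34.4 ± 5.01), Cd1d1 (32.1 ± 1.01), Aqp11 (23.9 ± 1.52), Ptcra (20.3 ± 3.65) and Rag2 (16.0 ± 3.11). Mns1 and Cd1d1, Aqp11 and Ptcra, and Ptcra and Rag2 differed by less than their summed SDs. The exon length pools all annotated transcripts, 17428 bases for Arpp21 and 9418 for Aqp11, whose longest transcripts have 5320 and 5798. The order below Rag1 may depend on that choice. The 2 subunits of the recombinase thus differed in level: on read counts, which also reflect length, 1.42 to 1.68 Rag2 reads were counted per 100 Rag1 reads over the 6 DP libraries.

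In WT thymus CD8 SP cells the 3 libraries agreed closely. Rag1 stood at 774, 709 and 787 CPM (libraries 1, 2 and 3), Rag2 at 26.5, 25.9 and 26.2 CPM, and Dntt at 983, 801 and 948 CPM. The 8 genes did not keep their DP proportions there. Ptcra, a gene of the stage before DP, stood at 39.2 to 47.7 CPM against 22.5 to 31.3 CPM in WT DP, with no overlap, and was the member whose highest WT mean lay outside DP. Mns1, at 163 to 182 CPM, was within the DP range of 158 to 211 CPM. Dntt reached 113 to 127 reads per 100 Rag1 reads in WT CD8 SP against 43.1 to 48.2 in WT DP. Mns1 reached 21.6 to 23.5 reads against 4.61 to 6.80, and Ptcra 5.31 to 6.16 against 0.699 to 0.783. Rag2 reached 3.33 to 3.66 against 1.42 to 1.68, so the Rag genes did not keep their DP ratio either. Arpp21 (39.6 to 41.0 against 20.5 to 26.8), Aqp11 (10.2 to 12.1 against 6.02 to 7.12) and Cd1d1 (4.51 to 5.55 against 1.99 to 2.71) were also higher relative to Rag1. These ratios are formed within a library and do not depend on the scaling. DP and CD8 SP cells were counted in separate tables of 21983 and 46095 symbols, so population and table cannot be told apart in the ratios. The CD8 SP libraries also had the highest summed level of 20 cell cycle genes, 9883 to 10864 CPM against 4029 to 5789 CPM in DP, and Cd4 at 36.5 to 55.7 CPM. Their 20 mature markers summed to 1652 to 2071 CPM, against 1006 to 1262 in DP and 3957 to 9988 in CD4 SP. The 12 positive selection genes summed to 713 to 830 CPM, against 1402 to 1642 in DP. Early and immature single-positive markers summed to 957 to 1163 CPM (14 listed), against 478 to 572 in DP (13 listed). The same 14 summed to 917 to 1097 CPM in the spleen, so this sum is not particular to thymus CD8 SP cells. The part of immature cells in the member levels was not tested. Fewer cells of a type and less RNA per cell cannot be told apart in these bulk samples, here and below.

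In the spleen the recombinase was not detected beyond single reads. Rag2 had 0 counts in all 12 libraries, Rag1 had 0 to 2 and Ptcra 0 to 5, and in the 6 WT libraries all 3 genes were at 0. A count of 0 allows up to 3 counts, or 0.107 to 0.121 CPM, which covers counting error only. Dntt was an exception to this pattern, with 104 to 297 counts in every spleen library (4.15 to 10.6 CPM). Cd1d1 changed least over the populations, from 79.5 to 89.5 CPM in DP to 31.1 to 39.3 in thymus CD8 SP and 33.1 to 49.5 in the spleen. Aqp11 and Arpp21 were at 1.05 CPM or less in the spleen, and Mns1 at 13.5 to 28.8 CPM.

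**Figure D1:**
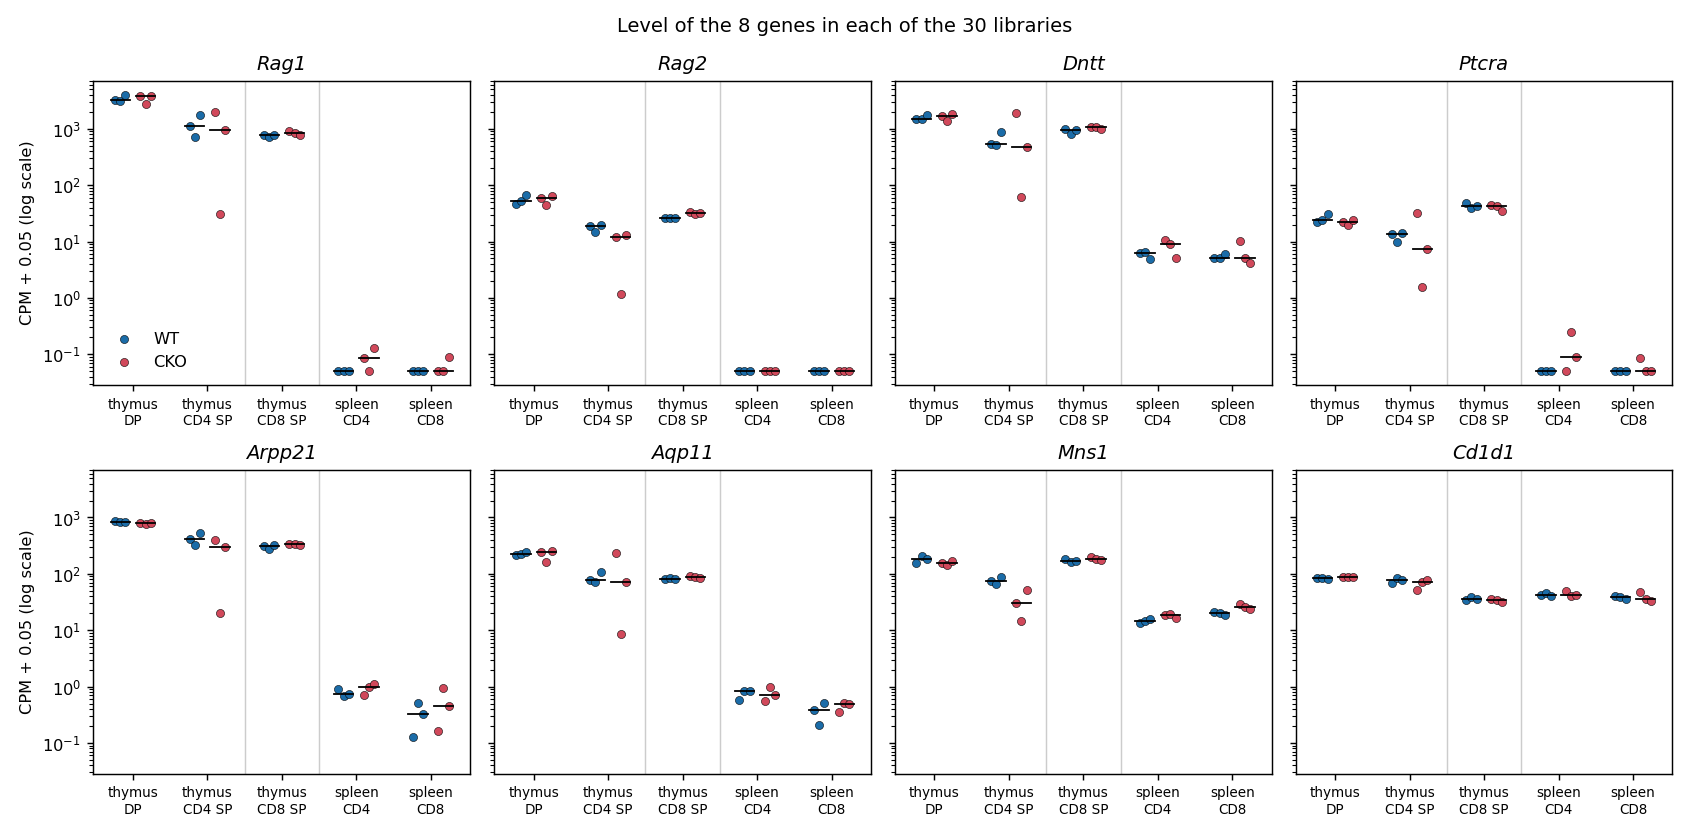
Level of each of the 8 genes (y axis, CPM plus 0.05, log scale) in thymus DP, CD4 SP and CD8 SP cells and in spleen CD4 and CD8 cells (x axis), 1 point per library, WT in blue and CKO in red, with a bar at the median of 3. Grey lines separate the 3 separately scaled tables. Rag1, Rag2 and Ptcra are at or near 0 CPM in the spleen, Cd1d1 varies least, and the CKO points of thymus CD4 SP spread far more than any other group, with Rag1 at 30.7 to 2013 CPM.

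The step from DP to CD4 SP could be tested within 1 table. In WT mice 7 of the 8 genes were lower in CD4 SP cells and Cd1d1 did not pass (edgeR's quasi-likelihood test, adjusted p under 0.05). Over all 11826 genes tested, 39.8% were called, 18.1% lower. The median log2 difference of the 8 members was -1.28, against 0.01 for all genes. Rag1 stood at 1103, 712 and 1767 CPM in CD4 SP cells of animals 15, 18 and 24, all under the lowest DP library, as for each of the 7 called members and for 24.9% of all genes (log2 difference -1.52 ± 0.25, SE, adjusted p = 3.99e-04). Rag2 was at 19.2, 14.998 and 19.5 CPM (-1.62 ± 0.16, adjusted p = 6.34e-06). Aqp11 was at 77.3, 70.5 and 107 CPM (-1.40 ± 0.14, adjusted p = 7.26e-06). The recombinase subunits and the aquaporin gene thus fell by similar amounts, and the 3 animals kept the same order for Rag1 and Aqp11, with animal 24 highest and 18 lowest. Dntt fell by 1.30 ± 0.18, Mns1 by 1.26 ± 0.13, Ptcra by 1.07 ± 0.17 and Arpp21 by 0.99 ± 0.15 on the log2 scale, with adjusted p from 8.38e-06 to 3.30e-04. Cd1d1, at 68.2, 85.5 and 76.7 CPM in CD4 SP and 79.5 to 84.2 in DP, overlapped between the populations (-0.10 ± 0.10, adjusted p = 0.487). In each of the 6 fits that dropped a single library, 7 members were again called.

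Other genes of the same steps were read beside them, in a comparison where 18.1% of all genes fell and 21.7% rose. Of 12 other DP markers, 11 fell in WT CD4 SP cells (median log2 -0.73), led by Slamf6 (-1.05 ± 0.11), a receptor with a role in NKT cell development, and Ly6d (-0.96 ± 0.11). All 11 tested genes of positive selection and 18 of 19 tested genes of mature single-positive cells rose, and all 20 cell cycle genes fell. The genes listed for V(D)J joining and end-joining repair did not move as a block: 4 of 12 fell, 1 rose and 7 did not pass. The share called is near the 39.8% of all genes and is not read as more than that background. Hmgb1 (-0.92 ± 0.10) and Hmgb2 (-0.91 ± 0.13), whose proteins bend DNA for the recombinase, fell, as did Xrcc6 (-0.93 ± 0.11), a Ku subunit, and Lig4 (-0.59 ± 0.13), the joining ligase. Poll, a gap-filling polymerase and relative of Dntt, rose (2.06 ± 0.25). Of 18 regulators of Rag or of the DP stage, 8 fell and 5 rose. The E protein genes Tcf12 (-0.57 ± 0.13) and Tcf3 (-0.45 ± 0.10) were among those that fell. Foxo1, which encodes a factor known to promote Rag transcription, rose (1.58 ± 0.11), as did Lef1 (1.02 ± 0.10). Of the genes around the Rag locus, the gene model B230118H07Rik, which shares 80 exon bases with Rag1 and 208 with Rag2, fell (-0.66 ± 0.17), Prr5l rose (2.18 ± 0.50), and Traf6 (0.10 ± 0.10) and Commd9 (-0.01 ± 0.15) did not pass.

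In CKO mice all 8 genes had negative estimates for the same step (median log2 -1.34, against 0.03 for all genes), and the 3 CD4 SP libraries were far apart. Mns1 was the 1 of 8 genes called, lower in CD4 SP (5.41% of 11780 genes called, 0.722% lower). DESeq2 called 2 of the 8, and voom with quality weights called 7, each lower in CD4 SP. Over the whole table DESeq2 called 1606 genes (448 lower) and voom 3960 (1840 lower). Mns1 stood at 30.1, 14.7 and 51.6 CPM in CD4 SP cells of animals 14, 17 and 23 and at 155, 143 and 167 CPM in their DP cells (-2.23 ± 0.44, adjusted p = 0.0389). All 3 CD4 SP libraries lay below all 3 DP libraries for Mns1, Rag1, Rag2, Arpp21 and Cd1d1, 5 of the 8 genes, as in 16.6% of all genes. With the animal as a block Mns1 was again the member called (-2.41 ± 0.39, adjusted p = 0.0489) while the genes called over the whole table went from 637 to 233. The call was lost without the DP library of CKO 14, 17 or 23 (adjusted p 0.148 to 0.162), with estimates as large as before (-2.23, -2.30 and -2.18). Over the whole table those fits called 31, 0 and 37 genes. Without the CD4 SP library of CKO 23 Mns1 was again the member called. Without that of CKO 14, Rag2 (-3.08, adjusted p = 0.0272), Dntt (-2.58, adjusted p = 0.0425) and Ptcra (-2.36, adjusted p = 0.0200) were lower together with Mns1. That fit called 4572 genes over the whole table, 2128 of them lower, against 637 and 85 with all libraries. Without that of CKO 17, Rag2 (-2.15, adjusted p = 0.0227) was lower together with Mns1, and 274 genes were called, 27 of them lower. With all 3 animals Rag1 had an estimate of -1.74 ± 1.13 (adjusted p = 0.450), and -2.82 to -1.19 over the fits that drop a library.

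Each animal gave both populations, so the level left in CD4 SP cells can be written as a percentage of its own DP level. Of the 48 values (8 genes in 6 animals), 45 were below 100%. In WT animals the medians over the 8 genes were 44.7% (15), 32.8% (18) and 46.1% (24), and CKO 23 had 29.2%, below all 3 WT animals for 6 genes and within their range for Rag1 and Cd1d1. CKO 17 had a median of 4.96%: 1.10% for Rag1, 2.47% for Rag2, 2.59% for Arpp21, 4.52% for Dntt, 5.40% for Aqp11, 7.59% for Ptcra and 10.2% for Mns1. The 7 genes were thus nearly gone from the CD4 SP library of CKO 17, where Cd8a was also at 1.68% of DP, while Cd1d1 stood at 79.3%. CKO 14 had no such uniform value. Mns1 (19.4%) and Rag2 (19.8%) were low, Arpp21 (49.5%), Rag1 (53.6%) and Cd1d1 (59.9%) intermediate, and Aqp11 (96.2%), Dntt (114%) and Ptcra (145%) at or above the level of its DP cells. Over the WT animals the 7 genes without Cd1d1 lay between 22.9% and 63.9%. The percentages of the 8 genes compare the RNA in a library, and what share of cells in each sorted tube had kept a DP phenotype was not measured here.

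**Figure D2:**
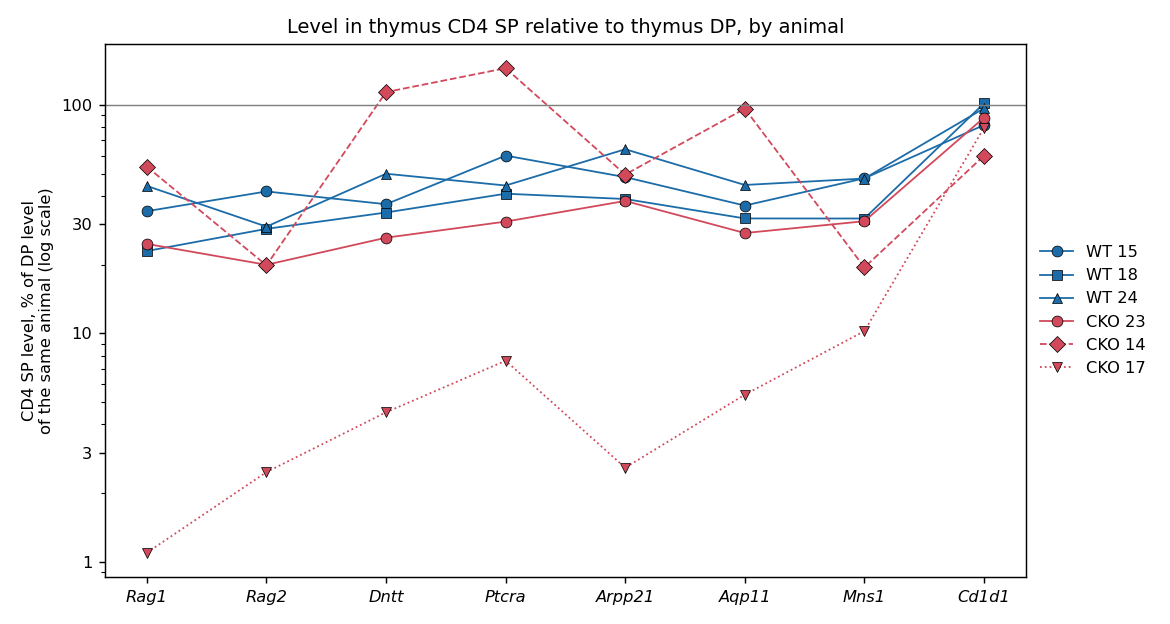
Level in thymus CD4 SP cells as a percentage of the thymus DP level of the same animal (y axis, log scale) for the 8 genes (x axis), 1 line per animal, WT in blue and CKO in red; the grey line marks 100%. CKO 23 lies just below the 3 WT animals for 6 genes and among them for Rag1 and Cd1d1, CKO 17 lies at 1.10% to 10.2% for all genes but Cd1d1, and CKO 14 runs from 19.4% (Mns1) to 145% (Ptcra).

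The percentages of CKO 14 were set beside the base composition and length of the transcripts. The longest annotated transcripts of Rag2 (40.5% GC) and Mns1 (43.0%) are the most AT-rich of the 8, and those genes had the lowest percentages in that animal. Ptcra (56.2% GC) is the most GC-rich and also the shortest (1283 bases), and had the highest. Rag1 (44.1%), Aqp11 (44.8%), Cd1d1 (47.8%), Dntt (48.6%) and Arpp21 (48.8%) lie between and do not follow the order, since Arpp21, second in GC, stood at 49.5% of DP and Aqp11 at 96.2%. Within a single library, the CD4 SP cells of CKO 14 had 0.586 Rag2 reads per 100 Rag1 reads (95% interval 0.517 to 0.663, exact and for counting error only), under the 1.11 to 2.11 of the WT CD4 SP libraries. CKO 17 had 3.63 (2.20 to 5.66) and CKO 23 had 1.36 (1.15 to 1.59). The part of base composition and length in the values of CKO 14 was not tested.

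**Figure D3:**
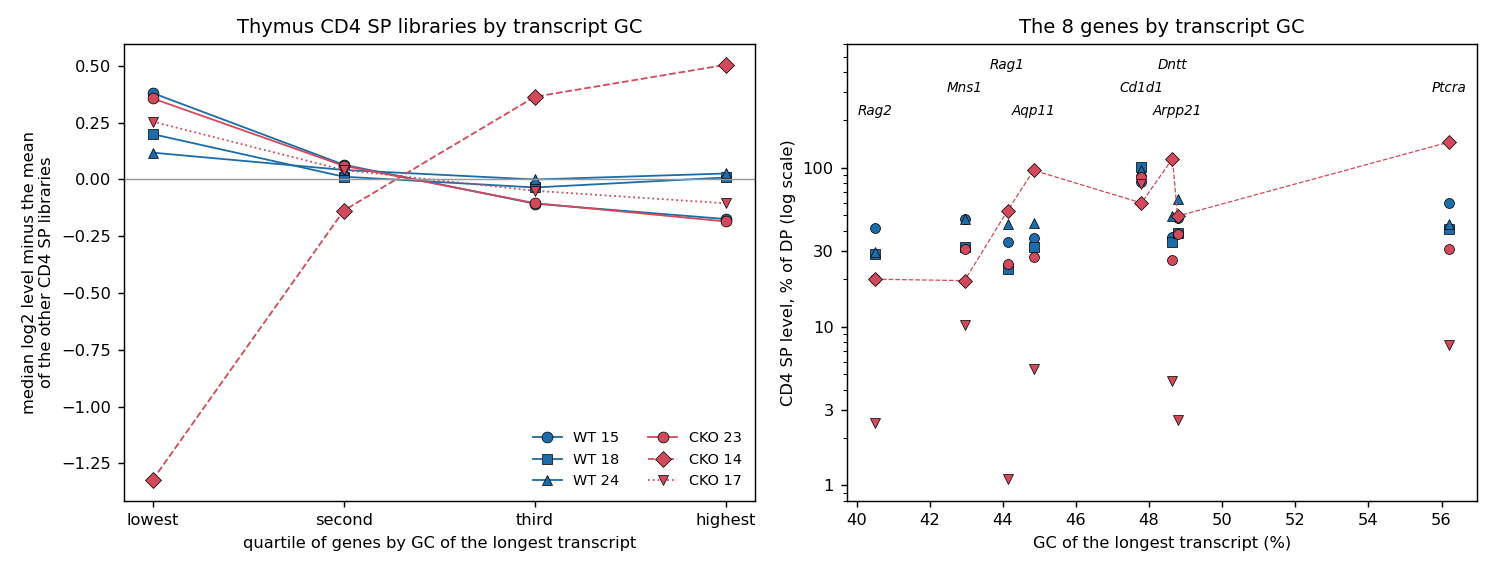
Left, median log2 level of genes in each thymus CD4 SP library minus the mean of the other 5 libraries (y axis), by quartile of transcript GC (x axis); right, the percentage of the DP level (y axis, log scale) of the 8 genes against the GC of their longest transcript (x axis), 1 symbol per animal as on the left. The library of CKO 14 climbs from -1.32 to 0.50 on the left, and its points on the right are lowest for Rag2 and Mns1 and highest for Ptcra.

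Rag1 served as the reference for a search of genes with a like pattern over the 12 DP and CD4 SP libraries. Likeness was the root mean square difference in log2 level after each gene was centred on its own mean, over 9263 named genes with a mean of at least 5 CPM. Among the 5 nearest were Cd8a (0.37), Nwd1 (0.47), Slc6a19 (0.48) and Arpp21 (0.49), so a member held the fifth place. Dntt ranked 16, Aqp11 17, Rag2 22, Ptcra 61 and Mns1 136, and Cd1d1 ranked 3221. Slc6a19 followed Rag1 in the library of CKO 17 (1.98% of its DP level) and stood at 79.2% in CKO 14. The 12 libraries share 6 animals, and the 2 divergent CKO libraries weigh heavily in this distance.

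The comparison of genotypes asks whether Prmt5 loss altered these genes at each stage. In thymus DP cells none of the 8 passed edgeR's test, where 3 of 11634 genes did (0.0258%), and none passed in DESeq2. With no adjustment 1 member, Mns1, had p under 0.05, against 7.07% of genes. Rag1 was at 3756, 2795 and 3870 CPM in CKO 14, 17 and 23 against 3221, 3108 and 4002 CPM in WT, and the groups overlapped (log2 fold change 0.01 ± 0.13, adjusted p = 0.994). Rag2 (0.04 ± 0.15) and Dntt (0.05 ± 0.11) were likewise near 0, with CKO 17 the lowest of its group for each of the 3. Dntt stood at 1663, 1376 and 1825 CPM in CKO and at 1476, 1499 and 1726 CPM in WT. The estimates of Ptcra (-0.26 ± 0.14, adjusted p = 0.748) and Mns1 (-0.25 ± 0.10, adjusted p = 0.693) were the farthest from 0. The genotypes did not overlap for 2 members, Cd1d1 higher at 87.8, 89.1 and 89.5 CPM in CKO against 79.5 to 84.2 CPM in WT (0.11 ± 0.07), and Arpp21 lower at 809, 765 and 801 CPM against 819 to 863 CPM (-0.08 ± 0.06). Over all genes 12.1% did not overlap, and 2 of 8 members are not read as more than that background. Of the other lists in DP cells, no gene of V(D)J joining (12 tested), of the regulators (18) or of the other DP markers (12) was called. The 20 cell cycle genes had negative estimates throughout (median -0.35) and none was called. Their summed level was 4029 to 4274 CPM in CKO, and 4134, 5789 and 5641 CPM in WT 15, 18 and 24, so WT 15 lay within the CKO range.

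In thymus CD4 SP cells no member and no gene of 11839 was called (0% by edgeR; DESeq2 called 1 gene; 306 genes, or 2.58%, and 1 member, Mns1, had an unadjusted p under 0.05). The groups did not overlap for Rag2 and Mns1, both lower in CKO, where 5.37% of genes were. Rag2 stood at 11.8, 1.11 and 12.97 CPM in CKO 14, 17 and 23 against 14.998 to 19.5 CPM in WT (-1.02 ± 0.75, adjusted p = 0.958). Mns1 stood at 30.1, 14.7 and 51.6 CPM against 67.2 to 87.8 CPM (-1.24 ± 0.44, adjusted p = 0.958). Over the fits that drop a library the estimates ran from -1.40 to -0.49 for Rag2 and from -1.73 to -0.88 for Mns1, without a call. For the other 6 genes the groups overlapped. Dntt was at 1891, 62.2 and 478 CPM against 507 to 862 CPM, so CKO 14 lay above every WT library and CKO 17 below. The fitted direction for Dntt (0.40 ± 0.995), Ptcra (0.17 ± 0.91) and Aqp11 (0.34 ± 0.94) rested on CKO 14, and without it the estimates were -1.24, -1.54 and -1.10. That of Rag1 (-0.21 ± 1.12) was 0.36 without CKO 17. The test of whether the genotype difference itself differed between CD4 SP and DP cells called none of the 8 genes and none of 12216 (0% by edgeR, and 0 by DESeq2), with 263 genes (2.15%) at an unadjusted p under 0.05. Mns1 had the smallest p of the members there (-1.01 ± 0.48, adjusted p = 0.983), with -1.52 to -0.66 over the fits that drop a library. With the animal as a block the estimates of Dntt, Ptcra and Aqp11 in that test turned from positive to negative (-0.70, -0.46 and -0.56), none of them called.

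In thymus CD8 SP cells none of the 8 was called, where 17 of 14911 genes were (0.114%), but the libraries were tight, and 4 members had an unadjusted p under 0.05 against 10.4% of genes. In the same 4 all 3 CKO libraries lay above all 3 WT libraries, against 7.74% of all genes in that direction. Rag2 was at 32.7, 30.9 and 31.7 CPM in CKO 1, 2 and 3 and at 26.5, 25.9 and 26.2 CPM in WT (log2 0.28 ± 0.07, adjusted p = 0.156). Rag1 was at 898, 854 and 789 CPM against 774, 709 and 787 CPM, so the lowest CKO library was next to the highest WT library (0.16 ± 0.05, adjusted p = 0.321). Dntt was at 1068, 1059 and 993 CPM against 983, 801 and 948 CPM (0.19 ± 0.07, adjusted p = 0.339). Arpp21 was at 332 to 341 CPM against 281 to 323 CPM (0.14 ± 0.05, adjusted p = 0.388). The differences of these 4 genes were small and missed the threshold. DESeq2 placed Rag2 just under it (adjusted p = 0.0497), and a fit without the filter on low counts called Rag1 (adjusted p = 0.0232) and Dntt (adjusted p = 0.00247). These fits also called more genes over the whole table, 208 with DESeq2 and 450 without the filter. Aqp11 (0.08 ± 0.05), Mns1 (0.11 ± 0.06), Ptcra (-0.07 ± 0.10) and Cd1d1 (-0.12 ± 0.08) overlapped between genotypes. Beside this, 17 of 19 tested mature markers had negative and 11 of 12 other DP markers positive estimates without a call, Cd4 stood at 44.8 to 55.7 CPM in CKO against 36.5 to 39.0 CPM in WT, and their part in the result was not tested. By Xist and Ddx3y, CKO 2 and 3 were female and the other 4 libraries male, so that sex is partly tied to genotype. With sex as a covariate the estimates of Rag2 (0.32 ± 0.09), Rag1 (0.25 ± 0.07), Dntt (0.23 ± 0.10) and Arpp21 (0.14 ± 0.08) kept their sign and none of the 8 genes was called.

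**Figure D4:**
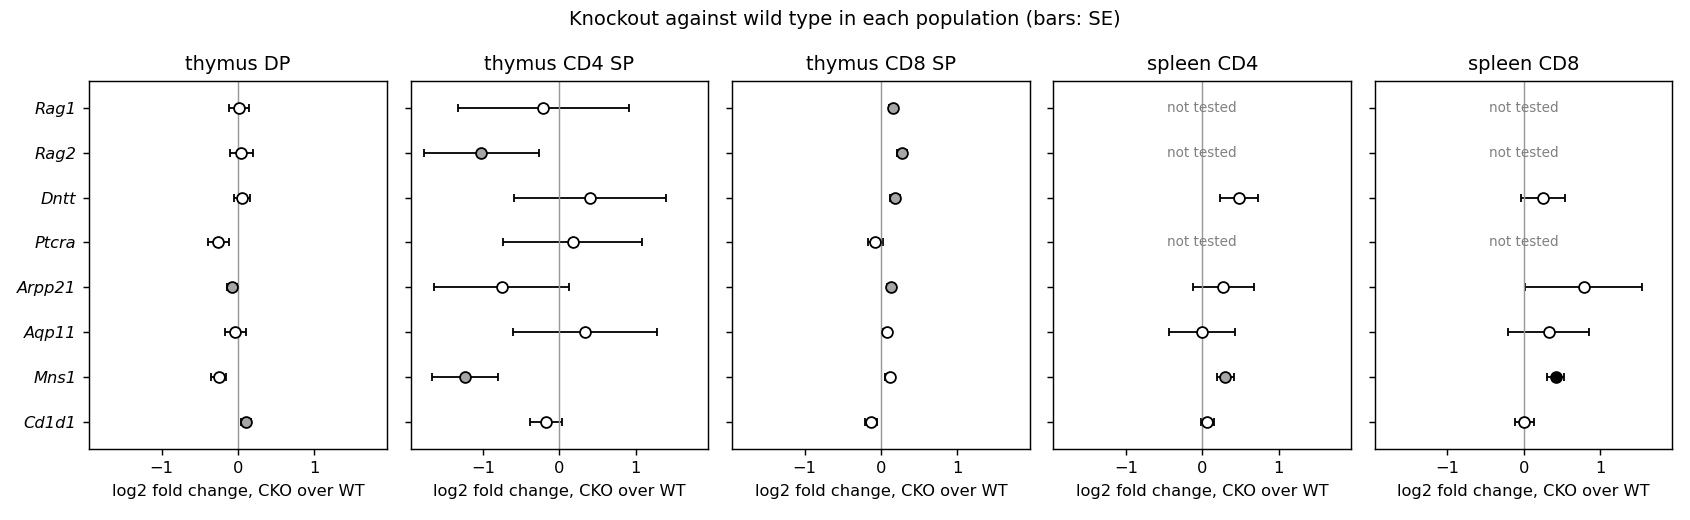
Log2 fold change of CKO over WT (x axis) for the 8 genes (y axis) in each population, with bars of 1 SE from edgeR. Black marks a called gene, grey a gene whose 3 CKO and 3 WT libraries do not overlap, white the rest, and genes with too few spleen counts were not tested. Mns1 in spleen CD8 cells (0.42) is the call, and the bars of thymus CD4 SP are the widest.

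In the spleen 5 of the 8 genes had enough counts to be tested, since Rag1, Rag2 and Ptcra did not pass the filter. None was called in spleen CD4 cells by edgeR or DESeq2, where edgeR called 14.2% of 14292 genes (1 member, Mns1, had an unadjusted p under 0.05, as did 28.5% of genes), and Mns1 was called in spleen CD8 cells, where 16.1% of 13917 genes were (9.83% higher). Mns1 stood at 28.8, 26.2 and 23.8 CPM in CD8 cells of CKO 65, 68 and 72 and at 20.7, 20.0 and 18.5 CPM in WT 67, 70 and 71. The groups did not overlap, as in 18.3% of genes in that direction (0.42 ± 0.11, adjusted p = 0.0234). The call was lost without WT 67 (adjusted p = 0.0540), WT 70 (0.0716), WT 71 (0.106) or CKO 65 (0.0614), with estimates of 0.35 to 0.45. In spleen CD4 cells Mns1 was at 18.3, 19.1 and 16.4 CPM in CKO and at 13.5, 14.4 and 15.7 CPM in WT, also without overlap (17.3% of genes were higher without overlap), and did not pass (0.30 ± 0.12, adjusted p = 0.105). Of its 5363 exon bases 2842 (53.0%) lie over exons of Tex9 on the opposite strand, and whether the counting used strand is not given in the sources used here. Tex9 itself differed little between genotypes in spleen CD8 cells (0.07 ± 0.10, adjusted p = 0.689). The overlap also bears on the thymus values of Mns1. From DP to CD4 SP, Tex9 fell in WT mice (-0.58 ± 0.17, adjusted p = 0.0148) and did not pass in CKO mice (-0.90 ± 0.50, adjusted p = 0.372). In CKO 14, 17 and 23 it stood at 17.2%, 61.3% and 82.3% of DP. The part of the overlap in the Mns1 values was not tested. Of the 20 cell cycle genes 14 were higher in CKO spleen CD8 cells (summed level 1051 to 1302 CPM against 800.2 to 855 CPM). Of 10 tested macrophage and dendritic markers 5 were higher there (summed level of 12 markers 169 to 222 CPM against 98.5 to 120 CPM), and 9 of 10 in spleen CD4 cells (208 to 383 against 148 to 181 CPM). Their part in the Mns1 values was not tested.

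Dntt was counted at a low level in every spleen library. In spleen CD4 cells it had 297, 224 and 126 counts in CKO 65, 68 and 72 and 163, 172 and 134 in WT 67, 70 and 71 (10.6, 8.87 and 5.09 against 6.22, 6.52 and 4.92 CPM). In spleen CD8 cells the counts were 268, 130 and 104 against 135, 132 and 154. CKO 65 was the highest in both populations, and the genotypes overlapped in both (0.48 ± 0.25, adjusted p = 0.227 in CD4; 0.26 ± 0.29, adjusted p = 0.609 in CD8). Without CKO 72 the CD4 estimate was 0.73 and passed (adjusted p = 0.0369), and without CKO 65 the CD8 estimate was -0.22. Cd1d1 showed 49.5, 41.1 and 42.7 CPM in CKO and 42.2, 45.0 and 40.1 CPM in WT spleen CD4 cells (0.07 ± 0.09), again with CKO 65 highest, and 33.1 to 47.0 against 35.1 to 40.7 CPM in CD8 cells (0.01 ± 0.13). Its near copy Cd1d2, a polymorphic pseudogene on the same chromosome, is 96.5% identical over 1230 aligned bases, so reads of the pair could be assigned to either. Cd1d2 was counted at 1.70 to 3.21 CPM in the spleen.

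Between the spleen populations, Mns1 was higher in CD8 than in CD4 cells in both genotypes and no other member was called. In WT mice it stood at 18.5 to 20.7 CPM against 13.5 to 15.7 CPM (0.43 ± 0.10, adjusted p = 0.00626; 31.9% of genes called, 15.3% higher, and 23.7% higher with no overlap). In CKO mice it stood at 23.8 to 28.8 CPM against 16.4 to 19.1 CPM (0.55 ± 0.11, adjusted p = 0.00856; 18.6% called, 8.29% higher, 17.5% with no overlap). Its antisense neighbour Tex9 was also higher in CD8 cells in WT (0.82 ± 0.11, adjusted p = 8.02e-05) and in CKO (0.97 ± 0.12, adjusted p = 6.72e-04). Arpp21 (-1.42 ± 0.54, adjusted p = 0.0661) and Aqp11 (-1.13 ± 0.48, adjusted p = 0.0977) lay lower in all 3 WT CD8 libraries than in all 3 CD4 libraries, as 22% of genes did, and did not pass, at 2 to 22 counts per library. With the animal as a block Cd1d1 was lower in CKO CD8 cells as well (-0.22, adjusted p = 0.0330), and the genes called over the whole table went from 2656 to 5055.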

How the data were processed

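The authors deposited raw read counts per gene in 3 tables, made with HISAT2 and HTSeq on GRCm38 per the submitters' processing notes. Versions, annotation and strand setting: not given in the sources used here. Libraries were poly(A)-selected with a directional kit, per the labels' protocols. Counts were analysed as deposited. CPM are counts scaled to TMM-adjusted totals of a whole table. Tests used edgeR 4.0.16 in R 4.3.3 on the libraries compared (filterByExpr, TMM, quasi-likelihood, two-sided, Benjamini-Hochberg over all genes tested, threshold 0.05). An SE is the log2 fold change over the square root of F.

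Groups and animals come from the sample titles. The members and gene lists were chosen with earlier results of these data known. The text names the 8 members, 4 of the 5 genes most like Rag1 (the other is not reported here), Prmt5, and 2 to 4 members of other lists with the smallest p, plus defining markers; Traf6, Commd9 and other genes beyond that rule were named after their values were seen. Alternatives were DESeq2 1.42.0, its size factors, limma 3.58.1 voom with quality weights, no filter, at least 5 CPM in 3 libraries, fits over 12 libraries, fits that drop a library, a replicate block, and sex in thymus CD8 SP. Deviations of same-numbered libraries correlated at 0.158 to 0.609 in the spleen and at -0.237 to 0.350 in thymus DP and CD4 SP, where pairing rests on the labels. Promoter sequences are from RefSeq (GRCm38.p6), which matched 7 of the 8 genes; positions are from GENCODE M21. The tests were tried on simulated counts. Floors of 3 counts and intervals cover counting error only.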

Additional observations from a re-analysis of the deposited data

Results flagged for a closer look

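For 3 genes the CKO libraries all lay below the WT libraries in one population and all above them in another. The tables were counted and scaled separately, so these differences between populations were not tested. The share of all genes with such a reversal was not counted, so 3 of 8 members is not read as more than background. For a single direction, CKO lay wholly below WT for 5.94% of genes (thymus DP) and 5.37% (thymus CD4 SP). It lay wholly above WT for 7.74% (thymus CD8 SP), 18.3% (spleen CD8) and 17.3% (spleen CD4). Rag2 had a log2 fold change of -1.02 in thymus CD4 SP and 0.28 in thymus CD8 SP, which are 1.30 apart. Arpp21 had -0.08 in thymus DP and 0.14 in thymus CD8 SP, 0.21 apart. Mns1 had -1.24 in thymus CD4 SP against 0.30 in spleen CD4 and 0.42 in spleen CD8, 1.54 and 1.65 apart. Over fits that drop a library the thymus CD4 SP estimates ran from -1.40 to -0.49 (Rag2) and from -1.73 to -0.88 (Mns1). In thymus CD4 SP cells CKO 23 was the CKO library nearest to WT for both Rag2 and Mns1. Of the fold changes named in this paragraph, the one of Mns1 in spleen CD8 passed the test.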

How the results depend on the processing

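Of 68 member estimates, the 7 decreases from DP to CD4 SP in WT mice kept their direction and call under every alternative run; estimates that were not called often lay near 0 and changed sign. In thymus DP, the genes called over the whole table went from 3 to 20 with DESeq2 and to 0 over all 12 libraries, in thymus CD4 SP from 0 to 1 with DESeq2, and in thymus CD8 SP from 17 to 208 with DESeq2, 450 without a filter and 3 with sex as a covariate, with 1 member called by DESeq2 and 2 without a filter. For CD4 SP against DP in CKO mice, members called went from 1 to 2 (DESeq2) and 7 (voom with quality weights), and genes from 637 to 1606 and 3960. With a replicate block on the animal, genes there went to 233, and in CKO spleen members went from 1 to 2 and genes from 2656 to 5055. The block turned the interaction estimates of Dntt (-0.70), Ptcra (-0.46) and Aqp11 (-0.56); it changed no other member call. In thymus CD8 SP, WT and CKO libraries share only numbers (correlations 0.0628 to 0.160), and the block called no member. Voom reversed Aqp11 in thymus DP (0.033), Dntt (-1.35), Ptcra (-1.60) and Aqp11 (-1.35) in thymus CD4 SP and in the interaction (-1.44, -1.39 and -1.40), Aqp11 in spleen CD4 (0.0026) and Cd1d1 in spleen CD8 (-0.028), and sex as a covariate reversed Ptcra in CD8 SP (0.063). The causes were not tested.

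With each library left out in turn, members called ranged from 0 to 1 in spleen CD4 and in spleen CD8, from 0 to 4 in CKO CD4 SP against DP and from 1 to 2 in WT spleen CD8 against CD4. For the spleen, genes called ranged from 1085 to 2144 (CD4) and from 1315 to 2298 (CD8); for the thymus, from 1 to 40 (DP), from 1 to 48 (CD8 SP), from 0 to 4572 (CKO CD4 SP against DP) and from 0 to 6 (interaction). Estimates that crossed 0 ranged, in thymus DP, from -0.078 to 0.15 (Rag1), -0.076 to 0.20 (Rag2), -0.050 to 0.15 (Dntt) and -0.18 to 0.15 (Aqp11). In thymus CD4 SP they ranged from -1.28 to 0.36 (Rag1), -1.24 to 0.95 (Dntt), -1.54 to 0.71 (Ptcra) and -1.10 to 0.88 (Aqp11), and for the interaction from -1.28 to 0.30, -1.28 to 0.85, -1.31 to 0.92 and -1.07 to 0.86 in the same order. The others were Ptcra in thymus CD8 SP (-0.15 to 0.027), Aqp11 (-0.29 to 0.19) and Cd1d1 (-0.017 to 0.12) in spleen CD4, and Dntt (-0.23 to 0.49), Arpp21 (-0.092 to 1.42) and Cd1d1 (-0.16 to 0.10) in spleen CD8. In spleen libraries with 0 counts of Rag1, Rag2 or Ptcra, depth allows a level of up to 0.107 to 0.121 CPM.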

Other observations

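Regulators of the DP stage were also read in the spleen, where Rag1 and Rag2 were at 0 to 2 counts. In spleen CD8 cells, where 16.1% of all genes were called, 3 of 18 were higher in CKO and 5 lower. Lef1 (log2 -0.45 ± 0.07, adjusted p = 0.00176) and Tcf7 (-0.38 ± 0.08, adjusted p = 0.00712), which encode factors of early T cell development and of memory cells, fell, and Sox4 (0.62 ± 0.14, adjusted p = 0.0135) rose. In spleen CD4 cells 2 of 18 were called, a share below the 14.2% of all genes: Sox4 rose (0.38 ± 0.10, adjusted p = 0.0255) and Bcl11b, a T cell identity factor, fell (-0.28 ± 0.08, adjusted p = 0.0380). Of 12 V(D)J joining genes, 1 was called in spleen CD4 and 2 in spleen CD8 cells, shares near those of all genes. Prkdc, the kinase of end joining, rose in CKO spleen CD4 (0.59 ± 0.08, adjusted p = 3.89e-04) and CD8 cells (0.50 ± 0.07, adjusted p = 8.69e-04).

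In CKO thymus CD4 SP against DP, 1 of the 18 regulators (Lef1, 1.12 ± 0.21, adjusted p = 0.0334) and 1 of the 12 joining genes (Poll, 2.74 ± 0.43, adjusted p = 0.0203) were called, both higher, as they were in WT mice. Over all genes 5.41% were called there, so these counts are near the background. In thymus CD8 SP cells Dtx1, a Notch target, was the 1 called gene of 13 tested early and immature thymocyte markers, lower in CKO (-0.60 ± 0.08, adjusted p = 0.0265; 0.114% of all genes were called).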
